A study of Mus musculus with 9 samples.

Results

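The genes described here are the components of the TGFβ and BMP signaling pathway: its ligands, the secreted antagonists that bind them, the receptors, the Smads, and regulators of the Smads. They were chosen by name from a list of 44 genes, and every probe-set (a group of short probes that reads 1 transcript) carrying 1 of these gene symbols was taken. Of the 44, 43 were represented, by 93 probe-sets, among 18194 genes named on the array in all. Gdf6 was not analysed here.

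The samples were primary mouse embryo fibroblasts (MEFs), cells grown out of 13.5 day embryos of mixed C57BL/6J x 129Sv/J strain, passaged on a 3T3 protocol (replated at a fixed density every few days) without any treatment. Cells of 3 groups were compared, each with 3 arrays from 3 independent cultures: Tgif1 -/- cells at passage 3 (Tgif1 null, or null P3), wild type cells at passage 3 (wild type P3) and wild type cells at passage 5 (wild type P5). The design had no Tgif1 null P5 group, so the effect of passage in cells lacking Tgif1 was not measured. Both comparisons with wild type P3 use the same 3 control arrays. Null P3 and wild type P5 differ in genotype and passage at once. Their comparison is the difference of the other comparisons, so its calls are not independent of theirs. Whether the cultures of a group came from different embryos is not given in the sources used here, so the spread between them may in part be technical. All values are log2 signals on which the lowest value was 2.23, and the SD and SE given below rest on 3 arrays a group. Since a MEF culture is measured in bulk, fewer cells of a type and less RNA per cell cannot be told apart.

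TGFβ, activin and BMP ligands bind complexes of type I and type II serine/threonine kinase receptors. The type I receptor then phosphorylates a receptor-regulated Smad: Smad2 and Smad3 for TGFβ and activin, Smad1, Smad5 and Smad9 for BMPs. These join Smad4 in the nucleus, where co-repressors such as Tgif1, Ski and Skil limit transcription, while Smad6, Smad7 and the Smurf ubiquitin ligases damp the signal upstream. In fibroblasts the pathway is best known for driving matrix production and slowing proliferation.

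Tgif1 itself, the homeodomain co-repressor that is deleted, had a log2 signal of 2.73 ± 0.42 (SD) in the Tgif1 null cultures against 9.83 ± 0.11 in wild type P3 and 10.10 ± 0.06 in wild type P5. Of 15 fibroblast markers, 14 or more exceeded a log2 signal of 4 on every array. Their levels were not all even. At an adjusted p under 0.05 by limma (a call), 1 was lower in the null than in wild type P3 (Dcn) and 0 higher. With passage 3 rose (Col1a2, Lum and S100a4) and 0 fell. Between null P3 and wild type P5, 5 were lower in the null (Col1a2, Dcn, Lum, S100a4 and Twist1) and 0 higher. Markers of other cells were not all at the floor. Their part in the results below was not tested. The summed linear signal of 13 striated muscle markers was 4790 to 6770 in null P3, 2400 to 2430 in wild type P3 and 4450 to 5400 in wild type P5, with Myod1 under 3 on the log2 scale throughout, and 10 of the 13 rose in Tgif1 null relative to wild type P3. With passage 7 of the 13 fell and 1 rose, Acta1, from 10.57 to 12.17 in mean log2 signal, with a median log2 difference of -1.59 over the list, so the sum at P5 does not follow most of its markers. Between null P3 and wild type P5, 11 were higher in the null and 1 lower. For 12 macrophage markers the sums were 828 to 1290, 522 to 567 and 381 to 449, with Aif1 and Ptprc under 3 in every group. On all arrays of the group, 9 exceeded 4 in the null and 6 in each wild type group. Against wild type P3, 8 were higher in the null and 0 lower at an unadjusted p under 0.05 by limma, and 1 of them, Ctss, was called. Against wild type P5, 6 were called higher in the null and 0 lower, while 0 were called with passage. The 8 endothelial markers summed to 90.6 to 125, 82.3 to 89.8 and 58.2 to 71.8. Of these, 6, Pecam1 and Cdh5 included, were under 3 in every group. The only call was Emcn, higher in null P3 than in wild type P5 (log2 difference 1.61). The 8 epithelial and mesothelial markers summed to 1360 to 1660, 1600 to 1730 and 985 to 1140. Epcam, Cdh1, Upk3b and Wt1 were under 3 in every group, and 3 others exceeded 4 on every array. None was called between null and wild type P3. Krt18 fell with passage (log2 difference -2.66) and was called higher in null P3 than in wild type P5 (2.67). Msln was called lower in null P3 than in wild type P5 (-0.84). Replicate 1 of the Tgif1 null was the array farthest from its group mean for 18 of the 36 members with a mean above 4 (53.6% of all such probe-sets). For replicate 2 of wild type P3 the count was 17 (56.3%), and for replicate 3 of wild type P5 it was 21 (40.8%).

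Smads and Tgif1 act at short DNA motifs, and the upstream sequences of 4 members called in the comparisons below are shown first. These 4 were chosen without a fixed rule, and a link between motifs and changes in signal was not tested. Each line gives the 250 bases before the annotated start, 5′ to 3′ on the strand of the gene, from RefSeq promoters of build GRCm38.p6. Capitals mark CAGAC (the Smad box) and TGTCA (the core of the Tgif1 site) wherever they occur on either strand, and GGCGCC (a GC-rich Smad site) was searched in the same way.
Tgfb2 promoter, chr1:186705990-186706239, minus strand: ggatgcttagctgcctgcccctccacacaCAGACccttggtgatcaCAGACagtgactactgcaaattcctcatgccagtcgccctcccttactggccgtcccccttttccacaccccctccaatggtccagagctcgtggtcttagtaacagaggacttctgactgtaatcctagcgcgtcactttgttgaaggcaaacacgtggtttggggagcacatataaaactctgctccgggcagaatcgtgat
Inhbb promoter, chr1:119422249-119422498, minus strand: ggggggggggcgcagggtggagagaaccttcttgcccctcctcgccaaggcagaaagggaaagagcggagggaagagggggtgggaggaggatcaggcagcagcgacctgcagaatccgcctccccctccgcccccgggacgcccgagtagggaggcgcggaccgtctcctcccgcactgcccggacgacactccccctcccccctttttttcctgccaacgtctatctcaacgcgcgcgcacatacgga
Smad6 promoter, chr9:64022060-64022309, minus strand: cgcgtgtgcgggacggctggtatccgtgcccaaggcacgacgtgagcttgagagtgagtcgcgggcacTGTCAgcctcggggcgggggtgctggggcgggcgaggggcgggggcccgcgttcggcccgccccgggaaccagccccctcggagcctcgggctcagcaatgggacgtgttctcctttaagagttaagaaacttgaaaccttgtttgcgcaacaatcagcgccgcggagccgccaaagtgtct
Bmpr1b promoter, chr3:141982265-141982514, minus strand: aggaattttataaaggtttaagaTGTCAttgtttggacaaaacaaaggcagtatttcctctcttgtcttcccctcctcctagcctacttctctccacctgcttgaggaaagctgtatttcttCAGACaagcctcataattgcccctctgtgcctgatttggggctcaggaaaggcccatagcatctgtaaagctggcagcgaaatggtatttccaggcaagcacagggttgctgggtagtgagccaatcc
The Tgfb2 window holds CAGAC at 2 places, the Smad6 window holds TGTCA at 1, and the Bmpr1b window, from the farthest upstream of its 3 annotated starts, holds each of them at 1. The windows at the other Bmpr1b starts, counted with 50 bases past the start, hold CAGAC at 0 and 1 places and TGTCA at 1 and 2. These windows overlap, and 1 TGTCA site lies in both. None of the 3 motifs was found in the Inhbb window. Other called members with a window are not shown. Counted with 50 bases past the start, Inhba and Fstl1 held none of the 3 motifs. Acvr1b and Bmpr1a held GGCGCC, and the windows of Smad5 held GGCGCC or CAGAC. For the motif shares, windows reaching 50 bases past the start were used, which matched 29 of the 44 members with 34 windows. CAGAC was found in 44.1% of these windows and in 49.6% of all 32851 windows, GGCGCC in 32.4% and 11.9%, and TGTCA in 17.6% and 45.4%. The 6 member windows with TGTCA came from 4 genes, Bmpr1b among them. TGTCA ends with the letters that open CAGAC, so the 2 can overlap. These shares describe letters in a window, not binding.

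At matched passage, the loss of Tgif1 went with few changes among pathway components. By limma's moderated test, with p-values adjusted over all 45101 probe-sets and a call at an adjusted p under 0.05, 1 of the 43 members was called between Tgif1 null P3 and wild type P3 (2.33%), where 2.58% of all genes were called by their brightest probe-set. That member, the BMP type I receptor Bmpr1b, rose (1.51% of all genes rose). No member fell (1.07% of all genes fell), although 4 were lower and 6 higher at an unadjusted p under 0.05. The share of all genes at that unadjusted level was not computed. Unadjusted counts, here and elsewhere in the text, therefore cannot be compared with other genes. The median log2 difference over the members was 0.01, against 0 over all genes.

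More of them changed with passage. Between wild type P3 and wild type P5, 11 of 43 members were called (25.6%), beside 13.2% of all genes. Of these, 8 rose, where 6.13% of all genes did, and 3 fell, where 7.11% did. Among genes with a mean log2 signal above 4, 23.3% were called, and 10 of the 36 members above that level (27.8%), with a median log2 difference of 0.27 over those members and -0.03 over those genes. Between Tgif1 null P3 and wild type P5, 8 of 43 members were called (18.6%), beside 11.4% of all genes. Of these, 3 were higher in the null, where 6.08% of all genes were, and 5 were lower, where 5.33% were. Above a mean of 4, the share was 8 of 36 members (22.2%) beside 19.7% of genes, and the medians were -0.07 and 0.04. In the comparison at matched passage it was 1 of 36 (2.78%) beside 4.52%. The share of members called was thus near that of other genes with a measurable signal in all of the comparisons.

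**Figure D1:**
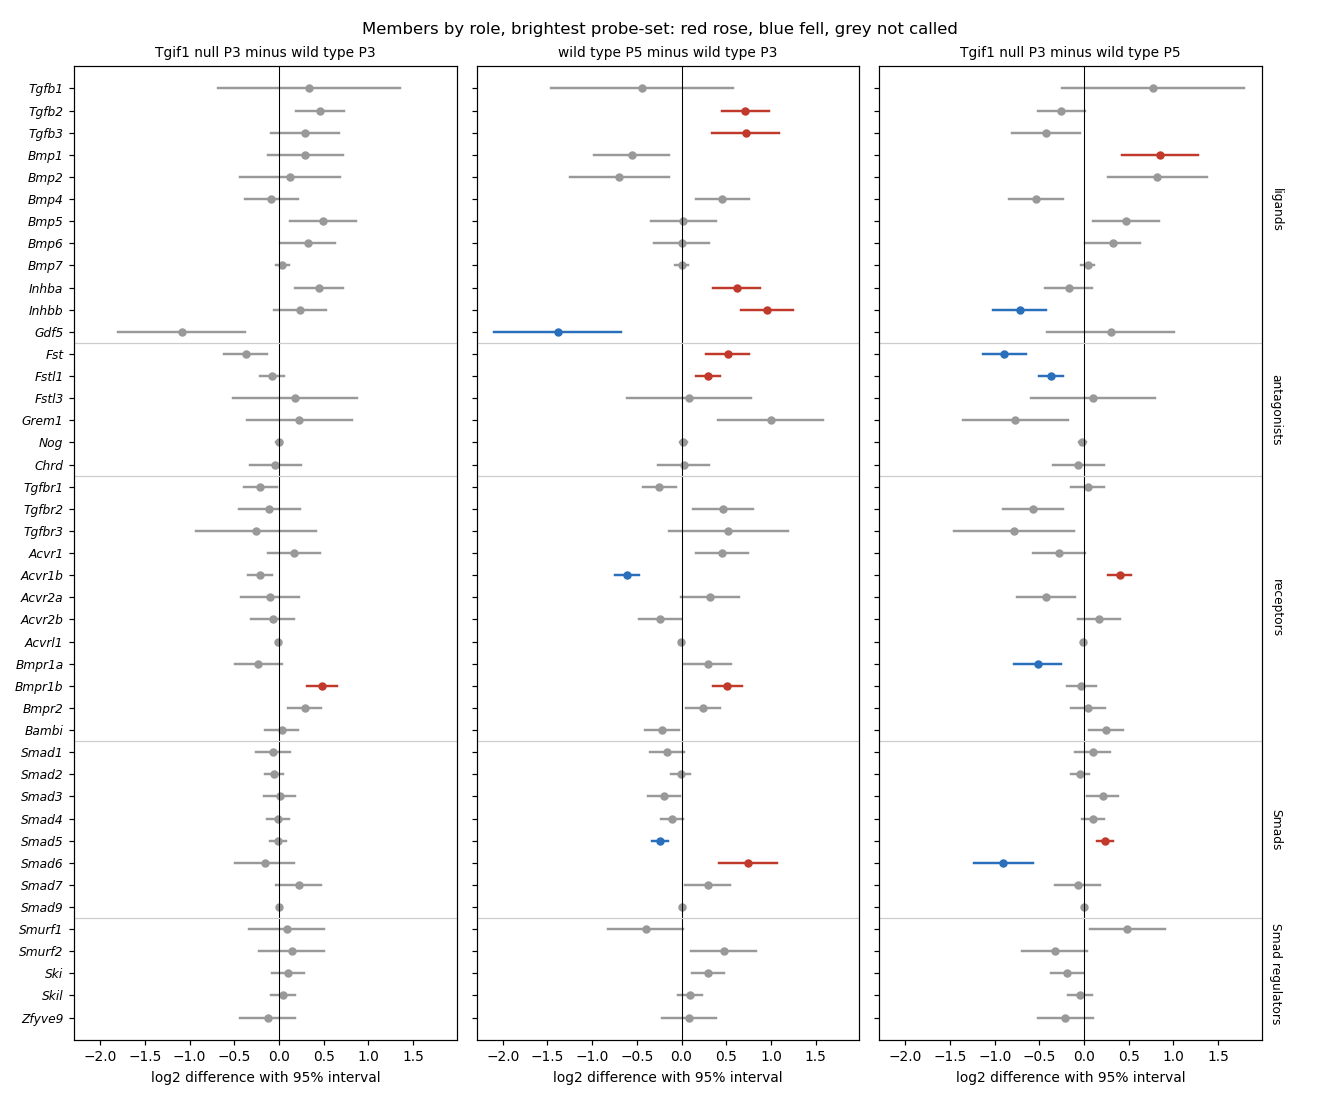
Log2 difference (x axis) of each of the 43 members (rows, grouped by role) in the 3 comparisons, by the brightest probe-set, with 95% intervals from limma's fit. Colour marks calls at an adjusted p under 0.05: 1 in Tgif1 null P3 minus wild type P3, 11 in wild type P5 minus wild type P3 and 8 in Tgif1 null P3 minus wild type P5.

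Among the ligands, Tgfb2, Tgfb3 and both activin subunit genes had a higher signal in later passage wild type cells. Tgfb2, 1 of the 3 TGFβ ligands, had log2 signals of 9.25, 9.35 and 8.95 in wild type P3, 9.76, 9.95 and 9.97 in wild type P5, and 9.64 on each of the Tgif1 null arrays. On this brightest probe-set the null values lay between both wild type groups and overlapped neither. Tgfb2 rose by 0.72 ± 0.11 (SE) on the log2 scale, or 1.64-fold, from P3 to P5 (adjusted p = 0.0125). Its difference between Tgif1 null and wild type P3 was 0.46 ± 0.11, with a 95% interval of 0.20 to 0.73, and did not pass (adjusted p = 0.136). Tgfb2 has 3 further probe-sets above the floor, whose log2 differences between null and wild type P3 were 0.52, 0.69 and 0.59 (adjusted p from 0.055 to 0.463), and whose P5 minus P3 differences were 0.91, 0.60 and 0.34, the last not called. Their null minus P5 differences were -0.39, 0.10 and 0.25, none called, so the place of the null relative to P5 differed between probe-sets. The P5 call was lost without replicate 2 of wild type P5 (adjusted p = 0.0553).

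Tgfb3, the related ligand, had log2 signals of 10.74, 10.60 and 10.77 in wild type P3 and 11.30, 11.41 and 11.55 in wild type P5, so the groups stood apart. It rose by 0.72 ± 0.16 (adjusted p = 0.0417), a call that was kept without Tgif1 null replicate 1 or 3 and lost without any 1 of the other 7 arrays (adjusted p up to 0.128). In Tgif1 null it read 11.34, 10.88 and 10.77, the first of these at the P5 level and the other two close to P3 (0.29 ± 0.16 against wild type P3, adjusted p = 0.706). Tgfb1, the founding member of the family, was the least reproducible of the 3, at 6.56 ± 0.64 (SD) in null P3, 6.23 ± 0.55 in wild type P3 and 5.78 ± 0.36 in wild type P5. No comparison called Tgfb1, and its 95% interval for null minus wild type P3 ran from -0.68 to 1.35.

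Inhba encodes the βA subunit of activin A. Its log2 signals were 12.15, 12.46 and 12.12 in wild type P3, 12.75, 12.83 and 13.00 in wild type P5, and 12.61, 12.69 and 12.76 in Tgif1 null. All null and P5 values lay above the wild type P3 values. Inhba rose 1.54-fold with passage (log2 0.62 ± 0.11, adjusted p = 0.0201), while the null minus wild type P3 difference was 0.45 ± 0.11 (adjusted p = 0.144). The passage call was lost without wild type P3 replicate 1 or 3 or without wild type P5 replicate 2 or 3 (adjusted p up to 0.0781).

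Inhbb, the βB subunit, had the largest rise with passage among the called members. It read 8.44, 8.60 and 8.14 in wild type P3 and 9.43, 9.36 and 9.27 in wild type P5, a 1.94-fold rise (log2 0.96 ± 0.12, adjusted p = 0.00646) that was called in all 17 alternative analyses, which changed the filter, the normalization, the model or the arrays used. The Tgif1 null values, 8.64, 8.53 and 8.73, overlapped wild type P3 and lay below every P5 value, and Inhbb was lower in null P3 than in wild type P5 by 0.72 ± 0.12 (log2 difference -0.72, adjusted p = 0.0196). That second call was lost without null replicate 1 or 2 or without wild type P5 replicate 1 or 2 (adjusted p up to 0.0778).

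Bmp1 is grouped here with the ligands by name, but encodes a secreted metalloprotease that processes collagen and cleaves the antagonist chordin. Its log2 signals were 8.72, 8.28 and 8.46 in Tgif1 null, 8.17, 8.14 and 8.27 in wild type P3 and 7.61, 7.35 and 7.95 in wild type P5, with no overlap between any pair of groups. Bmp1 was 1.80-fold higher in null P3 than in wild type P5 (log2 0.85 ± 0.17, adjusted p = 0.038), a call that was kept without wild type P5 replicate 3 and lost without any 1 of the other 8 arrays (adjusted p up to 0.126). A second probe-set of Bmp1 above the floor showed a log2 difference of 0.03 there. Gdf5, a BMP-type ligand of joints and cartilage, read 4.27, 4.83 and 4.15 in wild type P3, 2.93, 3.30 and 2.87 in wild type P5 and 3.20, 3.86 and 2.93 in Tgif1 null. It fell with passage (log2 difference -1.39 ± 0.29, adjusted p = 0.0381), with values so near the floor that the size of the fall is uncertain, and the call was kept without Tgif1 null replicate 2 or 3 and lost without any 1 of the other 7 arrays (adjusted p up to 0.129).

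Of the other ligands, Bmp4 had a log2 signal of 10.35 ± 0.26 (SD) in Tgif1 null, 10.44 ± 0.06 in wild type P3 and 10.89 ± 0.06 in wild type P5. Its P5 minus P3 difference of 0.45 (95% interval 0.16 to 0.75) and its null minus P5 difference of -0.54 (interval -0.84 to -0.24) did not pass (adjusted p = 0.0839 and 0.0548 by limma). Bmp2 stood at 5.38 ± 0.38, 5.26 ± 0.19 and 4.56 ± 0.28 in the same order, and Bmp5 at 4.88 ± 0.09, 4.39 ± 0.25 and 4.41 ± 0.20. Neither was called. Bmp6 and Bmp7 were near the floor, under a log2 signal of 3 on all 9 arrays.

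Of the 6 antagonists, Fst and Fstl1 had a higher signal at P5 than in either P3 group. Follistatin (Fst), which sequesters activins, had log2 signals of 12.33, 12.43 and 12.23 in wild type P3, 12.91, 12.81 and 12.83 in wild type P5 and 11.75, 12.11 and 12.02 in Tgif1 null. The groups did not overlap, and the null was the lowest. Fst rose with passage by 0.52 ± 0.10 on the log2 scale (adjusted p = 0.0274) and was 1.85-fold lower in null P3 than in wild type P5 (log2 difference -0.89 ± 0.10, adjusted p = 0.00463). The difference from wild type P3 was -0.37 ± 0.10 (adjusted p = 0.19). A second Fst probe-set was called in the same comparisons and directions, at 0.69 with passage and -1.02 against wild type P5. The call against wild type P5 was kept in all 17 alternative analyses and the call with passage in 9. The latter was lost without null replicate 3, without wild type P3 replicate 1 or 3, or without any 1 of the wild type P5 arrays (adjusted p up to 0.101).

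Fstl1, a secreted follistatin-like glycoprotein, read 14.00, 14.05 and 13.85 in wild type P3, 14.26, 14.22 and 14.30 in wild type P5 and 13.84, 13.91 and 13.92 in Tgif1 null. The P5 arrays stood above all others. Its rise with passage was 1.23-fold (log2 0.29 ± 0.06, adjusted p = 0.026), and the null was lower than P5 by 0.37 ± 0.06 (log2 difference -0.37, adjusted p = 0.0131). Its second probe-set gave 0.24 and -0.26, neither called. The passage call was lost without null replicate 2, wild type P3 replicate 1 or any 1 of the wild type P5 arrays (adjusted p up to 0.0899), and the other call without wild type P5 replicate 1 (0.0542). Gremlin (Grem1), a BMP antagonist of fibroblasts, had the largest uncalled passage difference, at 10.34 ± 0.11 (SD) in wild type P3, 11.34 ± 0.26 in wild type P5 and 10.57 ± 0.45 in Tgif1 null (95% interval of P5 minus P3 0.41 to 1.59, adjusted p = 0.0592 by limma). Fstl3 and chordin (Chrd) were not called, and noggin (Nog) was at the floor.

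Of the 12 receptors, Bmpr1b was the member that rose at matched passage. This type I receptor for BMPs and Gdf5 had log2 signals of 6.35, 6.43 and 6.24 in wild type P3, 6.80, 6.75 and 6.92 in Tgif1 null and 6.78, 6.93 and 6.85 in wild type P5. The null and P5 arrays shared 1 range, above all of the wild type P3 arrays. Bmpr1b rose 1.40-fold in Tgif1 null (log2 0.48 ± 0.07, 95% interval 0.32 to 0.65, adjusted p = 0.03) and 1.43-fold with passage (log2 0.51 ± 0.07, adjusted p = 0.00744). Null P3 and wild type P5 differed by -0.03, with an interval of -0.20 to 0.13. Both rises are read against the same wild type P3 arrays. The passage call was kept in all 9 fits that left out an array. The call in Tgif1 null was kept only without wild type P3 replicate 2, and leaving out any other array gave adjusted p up to 0.11 with log2 differences of 0.43 to 0.52. Over the 17 alternatives this call was kept in 6, with adjusted p up to 0.369. A second Bmpr1b probe-set, with all means under 4, gave 0.52 between null and wild type P3 (adjusted p = 0.0924).

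Acvr1b, the type I receptor for activin, gave the smallest p of all members with passage. It read 7.04, 7.07 and 7.11 in wild type P3, 6.86, 6.85 and 6.88 in Tgif1 null and 6.47, 6.35 and 6.57 in wild type P5. No groups overlapped, and the null lay between the wild type groups. Acvr1b fell with passage by 0.61 ± 0.05 on the log2 scale (log2 difference -0.61, adjusted p = 0.00186), a call kept in all 17 alternatives, and was 1.32-fold higher in null P3 than in wild type P5 (log2 0.40 ± 0.05, adjusted p = 0.00889). Against wild type P3 the null differed by -0.21 ± 0.05 (adjusted p = 0.162).

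Bmpr1a, the more widely used BMP type I receptor, had log2 signals of 9.83, 10.07 and 10.18 in Tgif1 null, 10.27, 10.38 and 10.11 in wild type P3 and 10.54, 10.60 and 10.49 in wild type P5. It was lower in null P3 than in wild type P5 (log2 difference -0.52 ± 0.11, adjusted p = 0.0389), and the call was kept without null replicate 3 or wild type P3 replicate 2 or 3 and lost without any 1 of the other 6 arrays (adjusted p up to 0.138). Its 3 other probe-sets above the floor gave -0.42, -0.53 and -0.94 there, none of them called.

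The TGFβ receptors were not called in any comparison. Tgfbr1, the type I receptor, stood at 9.89 ± 0.12 (SD) in Tgif1 null, 10.10 ± 0.07 in wild type P3 and 9.85 ± 0.08 in wild type P5. The 95% interval of its null minus wild type P3 difference was -0.39 to -0.03. Tgfbr2, the type II receptor, stood at 10.80 ± 0.18, 10.91 ± 0.22 and 11.38 ± 0.13 in the same order, with intervals of -0.45 to 0.23 for null minus P3 and 0.12 to 0.80 for P5 minus P3. The co-receptor Tgfbr3 (betaglycan) varied most between null cultures, at 8.88 ± 0.53, 9.13 ± 0.19 and 9.66 ± 0.22. Among the remaining receptors, Bmpr2, Acvr1, Acvr2a and the pseudoreceptor Bambi were measurable and not called by their brightest probe-sets, while Acvr2b and Acvrl1 had brightest probe-sets with means under 3. A second Acvr2a probe-set rose with passage (log2 0.56, adjusted p = 0.0217), where the brightest gave 0.32 (adjusted p = 0.268).

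**Figure D2:**
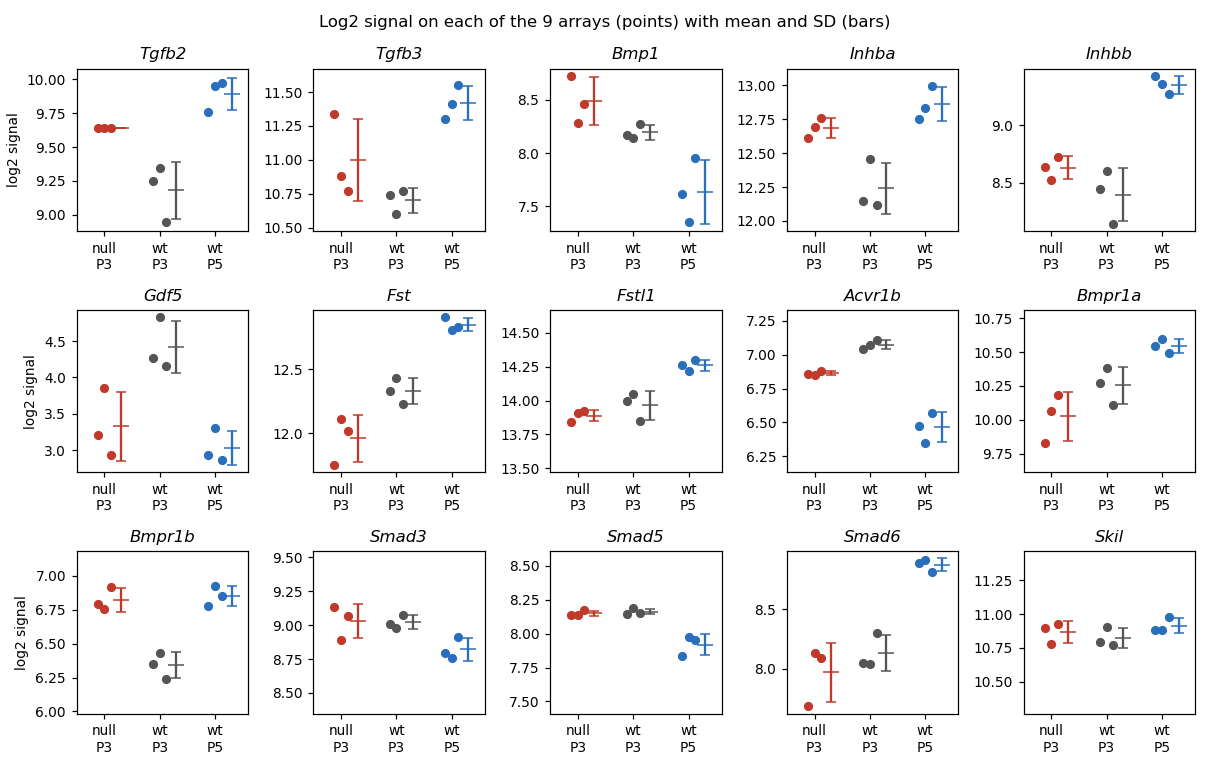
Log2 signal (y axis, a separate range for each gene) on each array for the 13 members called in any comparison and for Smad3 and Skil, with points for arrays and bars for mean and SD in Tgif1 null P3, wild type P3 and wild type P5 (x axis). The 3 Tgif1 null arrays of Bmpr1b sit with those of wild type P5, above all wild type P3 arrays, whereas those of Inhbb, Fst and Smad6 sit below all wild type P5 arrays.

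Of the 8 Smads, Smad6 and Smad5 were called, both on the BMP side, and neither at matched passage. Smad6, an inhibitory Smad that blocks BMP receptor signaling, had log2 signals of 8.05, 8.04 and 8.31 in wild type P3, 8.90, 8.92 and 8.81 in wild type P5 and 7.68, 8.14 and 8.09 in Tgif1 null. Wild type P5 stood above all other arrays, and the null overlapped wild type P3. Smad6 rose 1.67-fold with passage (log2 0.74 ± 0.14, adjusted p = 0.0227) and was 1.87-fold lower in null P3 than in wild type P5 (log2 difference -0.90 ± 0.14, adjusted p = 0.013). The passage call was lost without wild type P3 replicate 1 or 2 or any 1 of the wild type P5 arrays (adjusted p up to 0.0886), and the other call without wild type P5 replicate 1 or 2 (adjusted p up to 0.057).

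Smad5, a receptor-regulated Smad of the BMP branch, read 8.15, 8.19 and 8.15 in wild type P3, 8.14, 8.14 and 8.17 in Tgif1 null and 7.83, 7.97 and 7.95 in wild type P5. Its brightest probe-set fell with passage (log2 difference -0.24 ± 0.04, adjusted p = 0.012) and was higher in null P3 than in wild type P5 (log2 0.23 ± 0.04, adjusted p = 0.0169). The other probe-sets of Smad5 above the floor gave 0.53 and -0.15 with passage, neither called. The call against wild type P5 was lost without null replicate 2 or 3 (adjusted p up to 0.0572). With the mean of all its probe-sets the differences were 0.04 and -0.03, so both directions turned.

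Smad3, a mediator of TGFβ and activin signals, had log2 signals of 9.13, 8.89 and 9.07 in Tgif1 null, 9.01, 8.98 and 9.08 in wild type P3 and 8.80, 8.75 and 8.92 in wild type P5. The null minus wild type P3 difference was 0.01, with a 95% interval of -0.17 to 0.18, and no comparison called it. Smad2, its partner, stood at 9.39 ± 0.08 (SD), 9.45 ± 0.04 and 9.44 ± 0.02 in the same order, and Smad4, the common Smad, at 12.17 ± 0.06, 12.18 ± 0.05 and 12.07 ± 0.08. For null minus wild type P3, the intervals were -0.16 to 0.05 for Smad2 and -0.13 to 0.11 for Smad4. Smad7, the inhibitory Smad of the TGFβ branch, stood at 9.36 ± 0.07, 9.14 ± 0.21 and 9.43 ± 0.06, with intervals of -0.03 to 0.47 for null minus P3 and 0.04 to 0.55 for P5 minus P3, and was not called. Smad1 was measurable and not called, and Smad9 was at the floor.

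None of the 5 regulators of the Smads was called in any comparison by limma, and at an unadjusted p under 0.05 there were 0 of them between null and wild type P3, 2 with passage and 2 between null and wild type P5. Skil (SnoN), a co-repressor that binds Smads, read 10.89, 10.78 and 10.93 in Tgif1 null, 10.79, 10.91 and 10.77 in wild type P3 and 10.88, 10.88 and 10.98 in wild type P5. All groups overlapped, and the null minus wild type P3 interval was -0.09 to 0.18. A dimmer Skil probe-set read 6.06, 6.24 and 6.55 in the null against 5.76, 5.71 and 5.82 in wild type P3, without overlap (log2 0.52, adjusted p = 0.163). Ski, the related co-repressor, stood at 10.20 ± 0.04 (SD), 10.10 ± 0.14 and 10.40 ± 0.07, and the ubiquitin ligase Smurf2 at 10.26 ± 0.25, 10.12 ± 0.21 and 10.59 ± 0.04. The ligase Smurf1 had lower rather than higher means at P5, at 7.96 ± 0.28, 7.87 ± 0.25 and 7.47 ± 0.06. Zfyve9 (SARA), which presents Smads to the receptor, stood at 5.74 ± 0.25, 5.86 ± 0.03 and 5.95 ± 0.12.

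Different probe-sets of the same gene did not always move together. Of the 19 members with at least 2 probe-sets above a mean of 4, the call differed between probe-sets for 0 in null minus wild type P3, where none of these members was called by any probe-set, for 4 in P5 minus P3 (Tgfb2, Fstl1, Acvr2a and Smad5) and for 4 in null minus P5 (Bmp1, Fstl1, Bmpr1a and Smad5). The sign differed for 4, 6 and 6 of them. Over all 93 probe-sets of the members, 63 had a mean above 4 and 22 stayed under 2.5 on every array.

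**Figure D3:**
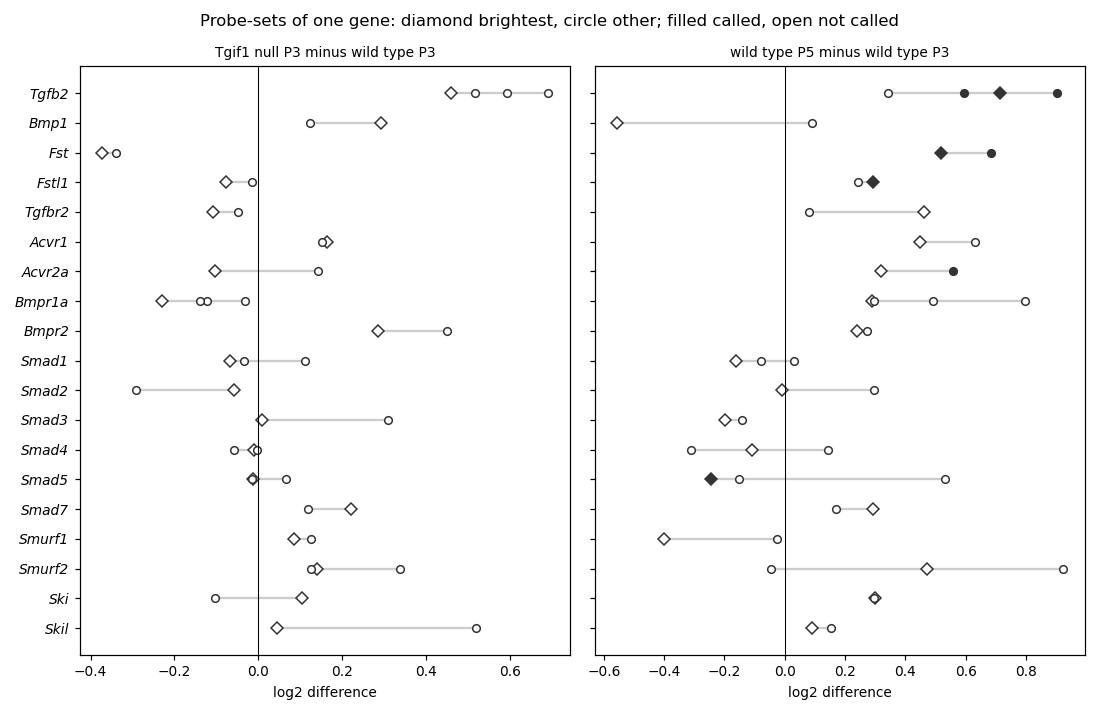
Log2 difference (x axis) of each probe-set with a mean above 4, for the 19 members (rows) with at least 2 of them, in Tgif1 null P3 minus wild type P3 (left) and wild type P5 minus wild type P3 (right). Diamonds mark the brightest probe-set, circles the others, and filled symbols a call. The 4 probe-sets of Tgfb2 all lie above 0 in both panels, while those of Smad5 lie on both sides of 0 with passage.

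Other genes of the pathway were taken from a list fixed by their roles. Of 59 measured, 1 rose and 0 fell in the null at matched passage (4 were lower at an unadjusted p under 0.05 by limma). With passage 3 rose (Twsg1, Bmper and Tll1) and 3 fell (Tgif2, Sin3a and Ctbp1). The share called was 1.69% at matched passage, 10.2% with passage and 1.69% between null P3 and wild type P5. Over all genes it was 2.58%, 13.2% and 11.4%. A mean above 4 was reached by 30 of the 59. The gene that rose in the null was Tll1, a chordin-cleaving protease related to Bmp1, at a log2 signal of 9.63 ± 0.10 (SD) against 8.82 ± 0.17 in wild type P3 and 9.77 ± 0.11 in wild type P5 (null minus P3 0.81, adjusted p = 0.0223). Tgif2, the paralog of Tgif1, had 9.25 ± 0.22 in the null, 8.55 ± 0.10 in wild type P3 and 7.65 ± 0.18 in wild type P5. It fell with passage (log2 difference -0.90, adjusted p = 0.0127) and was the gene of this list that was higher in null P3 than in wild type P5 (log2 1.61, adjusted p = 0.00208). Its difference at matched passage was 0.70 (adjusted p = 0.0784).

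As readouts of the pathway, 14 genes that it commonly induces or represses were measured beside the components. None was called between Tgif1 null and wild type P3. At an unadjusted p under 0.05 by limma, 5 were higher there (Acta2, Ccn2, Cdkn2b, Tagln and Fn1) and 1 lower (Id1), with no share of all genes to set beside them. The adjusted p was 0.0531 for Acta2, 0.0612 for Ccn2 and 0.063 for Cdkn2b. With passage 6 rose (Ccn2, Acta2, Fn1, Cdkn2b, Id4 and Hey1) and 0 fell, with 1 lower at an unadjusted p under 0.05. Between null P3 and wild type P5, 6 were lower (Acta2, Fn1, Id1, Id3, Id4 and Hey1) and 0 higher. At an unadjusted p under 0.05 by limma, 1 was higher there. The share called was 42.9% both with passage and between null P3 and wild type P5, beside 13.2% and 11.4% of all genes. Among genes with a mean above 4, where 12 of the 14 readouts lay, it was 23.3% and 19.7%. Hey1, a BMP and Notch target, was at 2.75 in both P3 groups and at 4.40 ± 0.27 (SD) in wild type P5, so its fold change is set by the floor. Id1, an inhibitor of differentiation induced by BMPs, stood at 11.89 ± 0.27 in the null, 12.55 ± 0.27 in wild type P3 and 13.24 ± 0.09 in wild type P5 (null minus P5 -1.35, adjusted p = 0.00861). Acta2, smooth muscle actin, moved little in size, at 14.95 ± 0.01, 14.84 ± 0.04 and 15.03 ± 0.01 (P5 minus P3 0.19, adjusted p = 0.00222).

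**Figure D4:**
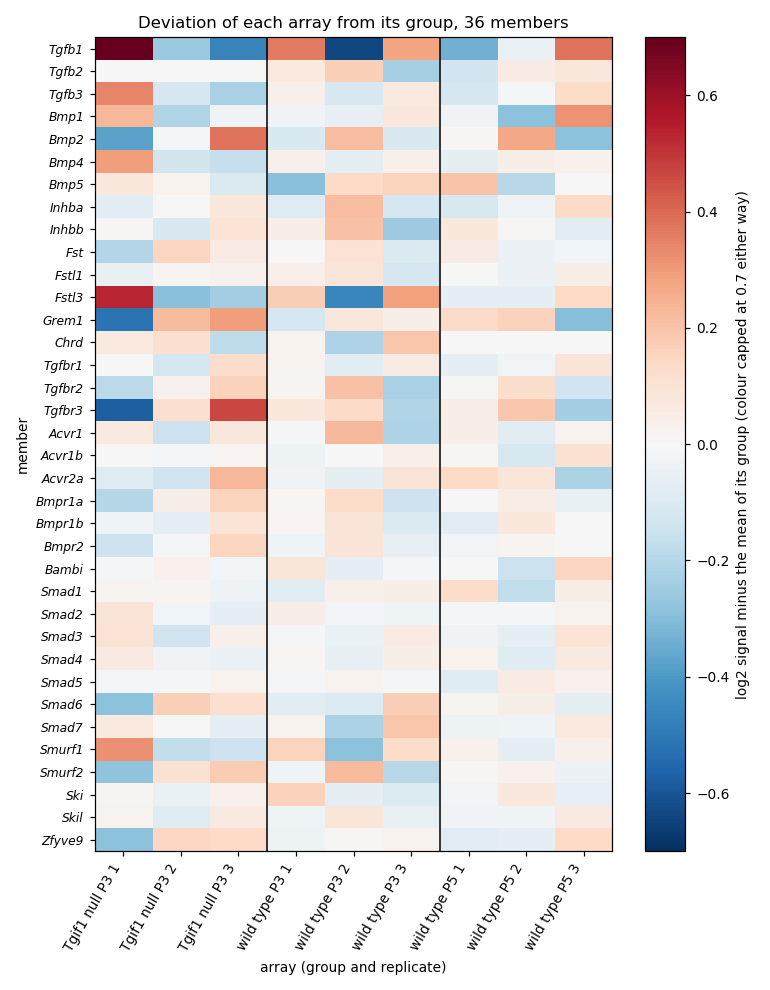
Deviation of each array (columns) from the mean of its own group in log2 signal (colour) for the 36 members (rows) with a mean above 4. Tgif1 null replicate 1 departs most in colour, with a root mean square deviation of 0.256 over the members, against 0.120 and 0.177 for the other two null arrays.

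The arrays of a group did not contribute equally to the spread of the members, nor to that of other genes. The root mean square deviation of the 36 members from their group means was 0.256, 0.120 and 0.177 for the Tgif1 null arrays (0.236, 0.127 and 0.194 over all probe-sets with a mean above 4), 0.103, 0.187 and 0.143 for wild type P3 (0.120, 0.210 and 0.164) and 0.0921, 0.107 and 0.140 for wild type P5 (0.108, 0.111 and 0.136). The members thus followed the spread of all measurable probe-sets. The null group was the least uniform by its replicate 1, and among these members those with the widest spread within it were Tgfb1, Tgfbr3, Fstl3 and Grem1, whose SDs were 0.64, 0.53, 0.46 and 0.45.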

How the data were processed

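RNA from 9 cultures of primary MEFs, 3 each of Tgif1 null P3, wild type P3 and wild type P5, was hybridised to Affymetrix MOE430_2.0 arrays. The authors normalized the scans with GCRMA, and the deposited values are log2 signals for 45101 probe-sets, not centred. GCRMA subtracts background and leaves dim probe-sets near a floor, so 43.7% of probe-sets spanned under 0.1 over the 9 arrays. The version of GCRMA is not given in the sources used here. Array medians lay between 2.48 and 2.50, and 18127 to 18258 probe-sets an array exceeded 4. The number of arrays limits the precision.

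From these values, limma 3.58.1 in R 4.3.3 fitted 3 group means over all 9 arrays (eBayes at its defaults, two-sided), with Benjamini-Hochberg adjustment over all probe-sets and a call at an adjusted p under 0.05. The step was tested on simulated data. An exact permutation test of 3 against 3 arrays cannot go below 0.1, so none was used. Symbols came from RefSeq genes by the gene number in the platform annotation, or from that annotation's own symbol where no RefSeq gene matched. With these, 34958 probe-sets had 1 symbol, 932 several and 9211 none. A gene is counted by its brightest probe-set (highest mean over the 9 arrays), and levels are not compared between genes, since probe-sets differ in response. RefSeq promoters were matched by symbol.

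The members, gene lists and tests were chosen with earlier results of these data known. Values on every array are given for Tgfb2, Smad3, Skil and each member called in any comparison. Group means are given for Tgfb1, Tgfbr1, Tgfbr2, Smad2, Smad4 and Smad7, and ranges or counts for most others. From each list of other pathway genes and readouts, at most the 3 genes with the smallest p are given with values. The lists cover other ligands, antagonists, receptors, Smad regulators, readouts and markers of fibroblasts, macrophages, striated muscle, endothelium, and epithelium or mesothelium. Alternatives changed the filter on low signals, the prior, the normalization, the replicate block, the arrays fitted, the choice of probe-set and the thresholds. The 17 alternatives counted for single members leave out the change of thresholds.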

Additional observations from a re-analysis of the deposited data

How the results depend on the processing

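The number of members called depended on the filter, the model and the arrays more than on the normalization. In Tgif1 null minus wild type P3, wild type P5 minus wild type P3 and Tgif1 null minus wild type P5, the 1, 11 and 8 calls became 4, 19 and 15 with probe-sets above 4 on at least 3 arrays and 3, 18 and 14 with those above 6. Fewer probe-sets are tested there, and whether that raised the counts was not tested. They became 0, 3 and 2 when limma's prior was fitted robustly with a trend on the signal. A fit to the 6 arrays of the groups compared, with fewer samples, called 0, 8 and 3, and the study's thresholds 0, 1 and 1. Averaging the probe-sets of each gene gave 2, 15 and 11. With it, the Smad5 differences turned to 0.0448 with passage and -0.032 against wild type P5. Quantile normalization gave 1, 11 and 8, and median centring 1, 14 and 10. Leaving out 1 array at a time gave 0 to 1, 4 to 12 and 3 to 7. The fewest came without wild type P5 replicate 2 in the passage comparison and without wild type P5 replicate 1 against the null. In the comparison at matched passage, the single call without null replicate 3 was Bmp6, near the floor. The causes of these differences in the counts were not tested.

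Correlations between the deviations of same-numbered replicates ran from -0.491 to 0.395, without a common sign. Deviations from the means of such small groups cannot decide whether the numbers pair the cultures. With the replicate number as a block, the calls were 0, 5 and 4. Near the floor the size of a fall is uncertain, as for Gdf5.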
